A study of Ovis aries with 32 samples.

Results

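The genes described here encode the Wnt ligands, the R-spondins, the Wnt receptors, the secreted Wnt antagonists, the cytoplasmic parts of the pathway and its TCF/LEF transcription factors. They were chosen by gene symbol from the annotated table, with earlier results of these data known. The symbols found 59 genes (109 transcripts) among 21271 genes (35219 transcripts) in the table. Of these, 42 passed a filter on low values, which kept genes whose normalized value reached 10 in 4 or more of the 32 libraries, and 12737 genes passed it in all. By role, 7 of 19 ligands, 3 of 4 R-spondins, 15 of 17 receptors, 8 of 9 secreted antagonists, 6 of 6 cytoplasmic components and 3 of 4 TCF/LEF factors passed.

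RNA was sequenced from perirenal preadipocytes of near-term sheep fetuses and from the same kind of cells after differentiation to adipocytes in culture. Fetal growth restriction (FGR) was produced by keeping the pregnant ewes in a hot environment, which leads to placental insufficiency, and control ewes were kept at a normal temperature and pair-fed. All ewes were Columbia-Rambouillet crosses carrying singletons. The 8 groups held 4 libraries each. The preadipocyte groups were male control (MC), female control (FC), male FGR (MFGR) and female FGR (FFGR), and the differentiated groups carry a final D (MCD, FCD, MFGRD and FFGRD). The labels do not say which fetus a library came from, so the p-values measure the spread between these libraries, part of which may be technical. All cells came from 1 visceral depot. The study's methods name cell pellets as the source of RNA, whereas the extraction text of the labels speaks of adipose tissue.

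Wnt proteins are secreted lipid-modified ligands that bind Frizzled receptors together with the co-receptors LRP5 and LRP6. Binding stops a cytoplasmic complex of AXIN, APC and GSK3B from marking beta-catenin for destruction, and beta-catenin then works with TCF/LEF factors on target genes. R-spondins keep Frizzled receptors on the cell surface through LGR receptors, while secreted Frizzled-related proteins (SFRP), WIF1 and Dickkopf (DKK) proteins act against the ligands or the co-receptors. In preadipocytes, beta-catenin signalling is known for holding back conversion to adipocytes.

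By their summed level the adipocyte markers followed the labels in all libraries but 1. All 9 of 9 adipocyte markers, among them ADIPOQ and FABP4, were upregulated with differentiation, and their summed level was 88.3 to 2043 in the 16 preadipocyte and 415.5 to 185500 in the 16 differentiated libraries. The exception was the library labelled FCD 4. All 9 markers were lower in it than in the other 15 differentiated libraries and within the preadipocyte range. Its summed level was 415.5 against 4953 to 185500 in those 15, and its ADIPOQ read 8.59 against 146.1 to 13420.8. Single markers of other differentiated libraries also lay within the preadipocyte range. ADIPOQ read 146.1 in MFGRD 4 and 174.7 in FFGRD 4, under 215.7 in the preadipocyte library FFGR 3. The Wnt genes of the library labelled FCD 4 went both ways. Its FZD4 and AXIN2 lay above the preadipocyte range, and its SFRP1 and DACT1 lay within it. Values without that library are given beside the Wnt results it touches. Within single backgrounds 9 adipocyte markers were called upward in MC (7.82% of all genes called), 1 in FC (FABP4, 0.4%), 4 in MFGR (3.45%) and 5 in FFGR (2.58%). The FC count includes the library labelled FCD 4, and ADIPOQ read 991, 497 and 2356 in FCD 1, FCD 2 and FCD 3. Of 6 preadipocyte or stromal markers tested, PDGFRB fell, THY1 rose and 4 were not called, and DLK1 did not pass the filter. Genes of other cell types moved too. Of 4 smooth muscle markers 3 were downregulated (summed level 2837 to 24250 in preadipocytes and 335.6 to 8232 in differentiated cells, none at 0 throughout), and of 3 adrenal cortex markers 2 were upregulated (1.39 to 89.0 and 12.8 to 515.4). CYP17A1 was listed at 0 in every preadipocyte library and CYP11B1 did not pass the filter. Among 2 immune markers tested CD14 rose and CD68 fell, 1 of 4 endothelial markers (KDR) fell, and neither of 2 mesothelial markers passed the test. The part of these cells in the results below was not tested. A set of 9 libraries stood apart in a clustering of all genes, 4 of preadipocytes (MFGR 1, FC 2, FFGR 2 and FFGR 3) and 5 of differentiated cells (MCD 2, MCD 4, MFGRD 1, FCD 2 and FFGRD 3). Genes of long genomic span read low in these 9 libraries, with slopes of -0.85 to -0.32 on log10 span against -0.06 to 0.34 in the other 23. The libraries held roughly 7.75 to 21.1 M reads, and a value of 10 stood for about 5.57 to 14.3 reads.

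Differentiation changed the level of 22 of the 42 Wnt genes when averaged over the 4 backgrounds (MC, FC, MFGR and FFGR), 12 upward and 10 downward. The receptor FZD4 rose most clearly and the antagonists SFRP1 and SFRP4 fell most clearly. A gene was called when its limma adjusted p was below 0.05 over all 12737 genes and its fold change above 1.5, which held for 27.2% of all genes, 12.4% upward and 14.8% downward. The median log2 fold change was 0.19 over the 42 Wnt genes and 0.03 over all genes. WNT11, WNT16 and DKK1 passed the filter through differentiated libraries alone and RSPO1 through preadipocyte libraries alone, so these 4 could hardly have passed without a difference. Of the 22 called genes, 20 had the same sign in all 4 backgrounds. In RNA from whole cultures, fewer cells of a type and less RNA per cell cannot be told apart. Fold changes are differences of mean log2(value + 1), differentiated minus preadipocytes, and understate the change of genes with low values.

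**Figure D1:**
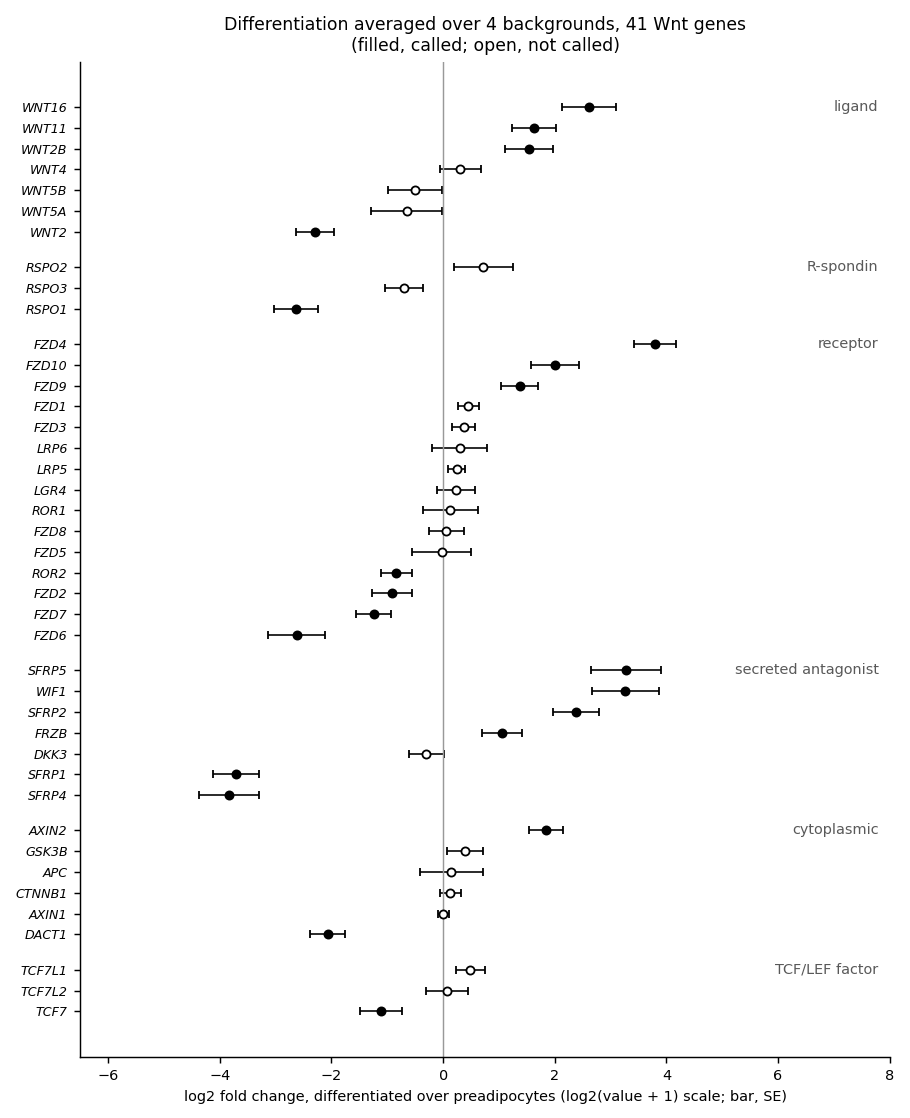
Log2 fold change of each Wnt gene on differentiation (x axis, log2(value + 1) scale, differentiated over preadipocytes, averaged over the 4 backgrounds), by role, with SE bars; filled points were called. DKK1 is left out because it was listed at 0 in all 16 preadipocyte libraries. Called genes lie on both sides of 0 among ligands, receptors, antagonists and cytoplasmic components, from 3.79 for FZD4 to -3.83 for SFRP4.

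Among the ligands, WNT2 fell with differentiation while WNT16, WNT11 and WNT2B rose. WNT2, a ligand of the beta-catenin branch (ENSOARG00020000160, chromosome 4, bases 57434623 to 57480646), was given at low values throughout. In males WNT2 read 35.5, 14.2, 80.7 and 27.3 in MC against 4.49, 8.81, 2.53 and 0 in MCD, and 22.3, 70.6, 11.1 and 137 in MFGR against 7.19, 9.22, 7.74 and 17.2 in MFGRD. In females it read 12.4, 57.3, 52.7 and 18.5 in FC against 15.2, 13.5, 7.53 and 8.46 in FCD, and 11.9, 8.36, 8.48 and 15.2 in FFGR against 0.791, 0.779, 0 and 2.24 in FFGRD. The groups did not overlap in MC and FFGR, and 10 of the 16 differentiated libraries lay below every preadipocyte library. The averaged change was 4.90-fold downward (log2 fold change -2.29, SE 0.35, adjusted p = 7.92e-06). WNT16 was 0 to 5.05 (median 0) in preadipocytes and 0 to 60.02 (median 7.66) in differentiated adipocytes, with 9 preadipocyte libraries at 0 (log2 fold change 2.61, SE 0.48, adjusted p = 1.16e-04). WNT11, best known from the branches of the pathway that do without beta-catenin, was 0 to 5.102 (median 1.42) in preadipocytes and 0.706 to 22.02 (median 6.38) in differentiated adipocytes (log2 fold change 1.62, SE 0.39, adjusted p = 0.00194). WNT2B was 0 to 10.9 (median 1.15) in preadipocytes and 0.836 to 34.2 (median 6.66) in differentiated adipocytes (log2 fold change 1.54, SE 0.43, adjusted p = 0.00593). These 3 ligands had medians of 0 to 1.42 before differentiation. WNT4, WNT5A and WNT5B were not called, with log2 fold changes of 0.31, -0.66 and -0.51 and SEs of 0.37, 0.64 and 0.48.

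The other 12 ligands did not pass the filter. WNT10B, known for its action against adipocyte formation, reached at most 12.9 and WNT9A at most 13.1, each with 1 library at 10 or more. WNT8B reached 5.46, while WNT1, WNT10A, WNT3, WNT6, WNT7A, WNT7B and WNT8A reached at most 1.82, 1.07, 0.754, 1.70, 1.45, 2.25 and 1.80. WNT3A and WNT9B were listed at 0 in all 32 libraries. At this depth a level of a few reads cannot be told from none.

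RSPO1 was the R-spondin that fell. RSPO1 (ENSOARG00020016022, chromosome 1, bases 12887457 to 12902384) had a value above 0 in every preadipocyte library and was listed at 0 in 9 of 16 differentiated libraries. In males RSPO1 read 25.9, 1.97, 5.08 and 53.9 in MC against 3.23, 0, 0 and 0 in MCD, and 4.904, 4.29, 14.6 and 9.35 in MFGR against 0, 0, 0.805 and 1.75 in MFGRD. Female libraries read 16.5, 5.13, 7.98 and 1.55 in FC against 0, 1.87, 2.099 and 0.714 in FCD, and 35.5, 5.68, 6.77 and 3.12 in FFGR against 0, 0, 0 and 0.758 in FFGRD. Its highest differentiated value, 3.23, lay under most preadipocyte values, and 12 of 16 differentiated libraries lay below all of them (log2 fold change -2.63, SE 0.40, adjusted p = 8.02e-06 by limma). The lowest preadipocyte values, 1.55 in FC 4 and 1.97 in MC 2, stood for fewer than 3 reads, which cannot be told from none. RSPO1 also passed the filter through preadipocyte libraries alone, so a difference between the stages was partly built into its being tested. RSPO1 was called in none of the 4 backgrounds on its own, and with the replicate number as a block in MC and MFGR. RSPO3 was 26.7 to 850.4 (median 361) in preadipocytes and 66.2 to 524 (median 148) in differentiated adipocytes and was not called (log2 fold change -0.70, SE 0.35, adjusted p = 0.124). With the replicate number as a block RSPO3 was called lower in MC (log2 fold change -1.34, adjusted p = 0.0446 by limma). RSPO2 was not called either, with a log2 fold change of 0.72 and an SE of 0.54, and RSPO4 reached at most 2.45.

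Of the 15 receptors tested, FZD4, FZD10 and FZD9 rose, FZD6, FZD7, FZD2 and ROR2 fell, and 8 were not called. FZD4, a Frizzled that also binds norrin in the growth of retinal vessels (ENSOARG00020018518, chromosome 21, bases 9582495 to 9592731), rose 13.9-fold. In males FZD4 read 159, 90.3, 333 and 184 in MC against 1983, 1895, 4465 and 2403 in MCD, and 121, 567, 97.8 and 335 in MFGR against 2515, 2794, 1219.99 and 2029.8 in MFGRD. The female values were 57.8, 111, 334 and 342 in FC against 1630.4, 488, 5341 and 586 in FCD, and 53.6, 25.1, 122 and 349 in FFGR against 5458, 4617, 2067 and 1929 in FFGRD. Every differentiated library was above every preadipocyte library of its own background. Over all backgrounds 15 of 16 differentiated libraries were above the highest preadipocyte value of 566.6, and FCD 2 at 487.9 was the exception (log2 fold change 3.79, SE 0.37, adjusted p = 1.10e-08).

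The other called receptors changed less evenly. FZD6, a Frizzled tied to planar cell polarity, was 13.2 to 372 (median 86.7) in preadipocytes and 0 to 52.3 (median 14.2) in differentiated adipocytes, a 6.17-fold fall (log2 fold change -2.62, SE 0.50, adjusted p = 1.80e-04). FZD7 was 50.2 to 658 (median 240.1) in preadipocytes and 29.1 to 172 (median 92.01) in differentiated adipocytes (log2 fold change -1.24, SE 0.31, adjusted p = 0.00283). FZD10 was 0 to 13.4 (median 2.24) in preadipocytes and 2.54 to 163 (median 11.2) in differentiated adipocytes, a 3.999-fold rise with the library labelled FCD 4 at the highest value (log2 fold change 1.76 without it; with it, SE 0.43 on the log2 scale, adjusted p = 6.78e-04). These 3 receptors overlapped between the stages when all backgrounds were pooled. FZD9 was 0 to 22.2 (median 6.25) in preadipocytes and 4.23 to 52.7 (median 15.6) in differentiated adipocytes (log2 fold change 1.37, SE 0.34, adjusted p = 0.00222). ROR2, a co-receptor of WNT5A, was 572 to 2772 (median 1076) in preadipocytes and 199 to 2061 (median 644) in differentiated adipocytes (log2 fold change -0.84, SE 0.28, adjusted p = 0.0234). FZD2 was 7.13 to 41.9 (median 13.04) in preadipocytes and 0 to 33.7 (median 6.97) in differentiated adipocytes (log2 fold change -0.92, SE 0.35, adjusted p = 0.0466). The call of FZD2 was lost under 27 of the 40 alternative settings that gave it a value, and its sign differed in FC.

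The co-receptors LRP5 and LRP6 were not called, with log2 fold changes of 0.25 (SE 0.15) and 0.29 (SE 0.49). FZD1 was 779 to 1722 (median 1182) in preadipocytes and 700.4 to 3073 (median 1764) in differentiated adipocytes (log2 fold change 0.45, SE 0.19, adjusted p = 0.0631). FZD3, FZD5 and FZD8 had log2 fold changes of 0.37, -0.03 and 0.06, with SEs of 0.21, 0.53 and 0.31. LGR4, the R-spondin receptor that passed the filter, and ROR1 had log2 fold changes of 0.23 and 0.13, with SEs of 0.34 and 0.49. LGR5 and LGR6 did not pass, with highest values of 17.4 and 2.75.

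**Figure D2:**
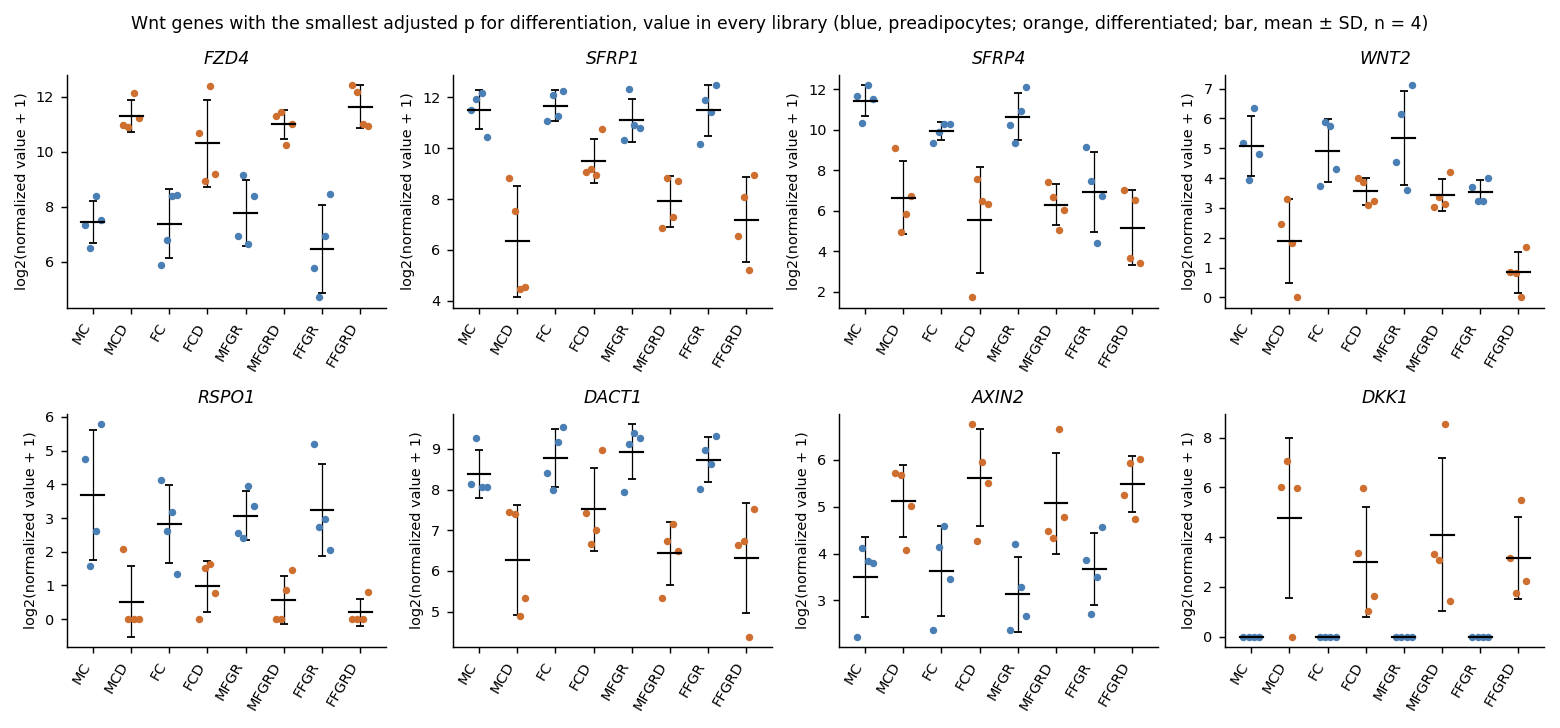
Value of the 8 Wnt genes with the smallest adjusted p, in every library (y axis, log2(normalized value + 1); x axis, the 8 groups; black bars, mean ± SD of 4 libraries). FZD4, AXIN2 and DKK1 lie higher and SFRP1, SFRP4, WNT2, RSPO1 and DACT1 lower in the differentiated groups; DKK1 sits at 0 in all 16 preadipocyte libraries.

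The secreted antagonists split. SFRP1 and SFRP4 fell, DKK1, SFRP2, WIF1, SFRP5 and FRZB rose, and DKK3 was not called. Proteins of the SFRP family, to which FRZB also belongs, carry a Frizzled-like domain that binds Wnt ligands. SFRP1 (ENSOARG00020024807, chromosome 26, bases 39585424 to 39625227) fell 13.1-fold. In males SFRP1 read 2893, 3874, 4643 and 1400.3 in MC against 453, 185, 20.7 and 21.95 in MCD, and 1283, 5144, 1919 and 1793 in MFGR against 115, 454, 154 and 416 in MFGRD. Values in females were 2173, 4431, 2433 and 4909 in FC against 529, 577, 496 and 1746 in FCD, and 1135, 3819, 2766 and 5713 in FFGR against 92.01, 271, 35.6 and 491 in FFGRD. In each background every differentiated library lay below every preadipocyte library, and the library labelled FCD 4 at 1746 was the sole differentiated library inside the preadipocyte range (log2 fold change -3.71, SE 0.41, adjusted p = 8.14e-08).

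SFRP4 (ENSOARG00020015741, chromosome 4, bases 55921074 to 55930918) fell 14.2-fold. In males SFRP4 read 3209, 1305, 4643 and 2933 in MC against 549, 29.2, 55.4 and 104 in MCD, and 1187, 638, 1941 and 4433 in MFGR against 169.8, 102, 31.8 and 63.8 in MFGRD. In females it read 654, 936, 1249.8 and 1239.5 in FC against 2.28, 190.2, 88.9 and 79.2 in FCD, and 558, 174, 19.8 and 105 in FFGR against 127, 11.7, 90.7 and 9.76 in FFGRD. The groups did not overlap in MC, FC and MFGR but did in FFGR, whose preadipocytes held the lowest values before differentiation (log2 fold change -3.83, SE 0.54, adjusted p = 2.77e-06). In FFGR the log2 fold change was -1.77 (SE 1.17, adjusted p = 0.536) by limma, against -4.79 in MC, -4.42 in FC and -4.35 in MFGR. The difference between FFGR and FC in this response was 2.65 (SE 1.72, adjusted p = 1) and was not called. FFGR 2 and FFGR 3, at 174 and 19.8, were among the libraries that stood apart. Without all libraries that stood apart, the log2 fold change of SFRP4 was -3.23 in FFGR, -3.96 in MC, -5.13 in FC and -4.87 in MFGR.

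DKK1, which blocks the co-receptors LRP5 and LRP6 (ENSOARG00020022468, chromosome 22, bases 8190428 to 8192837), was listed at 0 in all 16 preadipocyte libraries and had a value above 0 in 15 of 16 differentiated libraries. DKK1 read 63.6, 133, 0 and 60.998 in MCD, 9.15, 61.5, 1.06 and 2.13 in FCD, 9.07, 7.503, 368 and 1.72 in MFGRD and 8.05, 2.36, 43.7 and 3.77 in FFGRD. The values ran from 0 in MCD 3 to 367.6 in MFGRD 3, so the spread among differentiated libraries was wide. Its mean level of log2(value + 1) was 0 before and 3.76 after differentiation (limma, adjusted p = 3.51e-05), and no fold is given against a group listed at 0. DKK3, the divergent Dickkopf, was 85.6 to 953 (median 390.2) in preadipocytes and 71.4 to 632 (median 305) in differentiated adipocytes (log2 fold change -0.30, SE 0.31, adjusted p = 0.513). DKK2 did not pass the filter, with a highest value of 6.83.

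The called antagonists with a rise had the same sign in all 4 backgrounds. SFRP2 was 239 to 6639 (median 1751) in preadipocytes and 1132 to 35438.5 (median 8986) in differentiated adipocytes, a 5.21-fold rise (log2 fold change 2.38, SE 0.41, adjusted p = 4.86e-05). WIF1, which binds Wnt ligands directly, was 0 to 78.5 (median 17.8) in preadipocytes and 7.93 to 1151 (median 169.6) in differentiated adipocytes, a 9.59-fold rise (log2 fold change 3.26, SE 0.60, adjusted p = 1.06e-04). SFRP5, also known as a secreted product of adipocytes, was 0 to 39.8 (median 3.31) in preadipocytes and 2.25 to 671 (median 47.98) in differentiated adipocytes, a 9.65-fold rise (log2 fold change 3.27, SE 0.62, adjusted p = 1.67e-04). WIF1 and SFRP5 each had 1 preadipocyte library at 0, FFGR 2. FRZB was 2.01 to 33.6 (median 11.1) in preadipocytes and 5.805 to 51.7 (median 24.9) in differentiated adipocytes, a 2.07-fold rise (log2 fold change 1.05, SE 0.36, adjusted p = 0.0244). The log2 fold change of FRZB was 0.12 in MC and between 1.27 and 1.501 in the other backgrounds. Thus members of 1 family went opposite ways, with SFRP1 and SFRP4 lower and SFRP2, SFRP5 and FRZB higher in the same cultures.

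**Figure D3:**
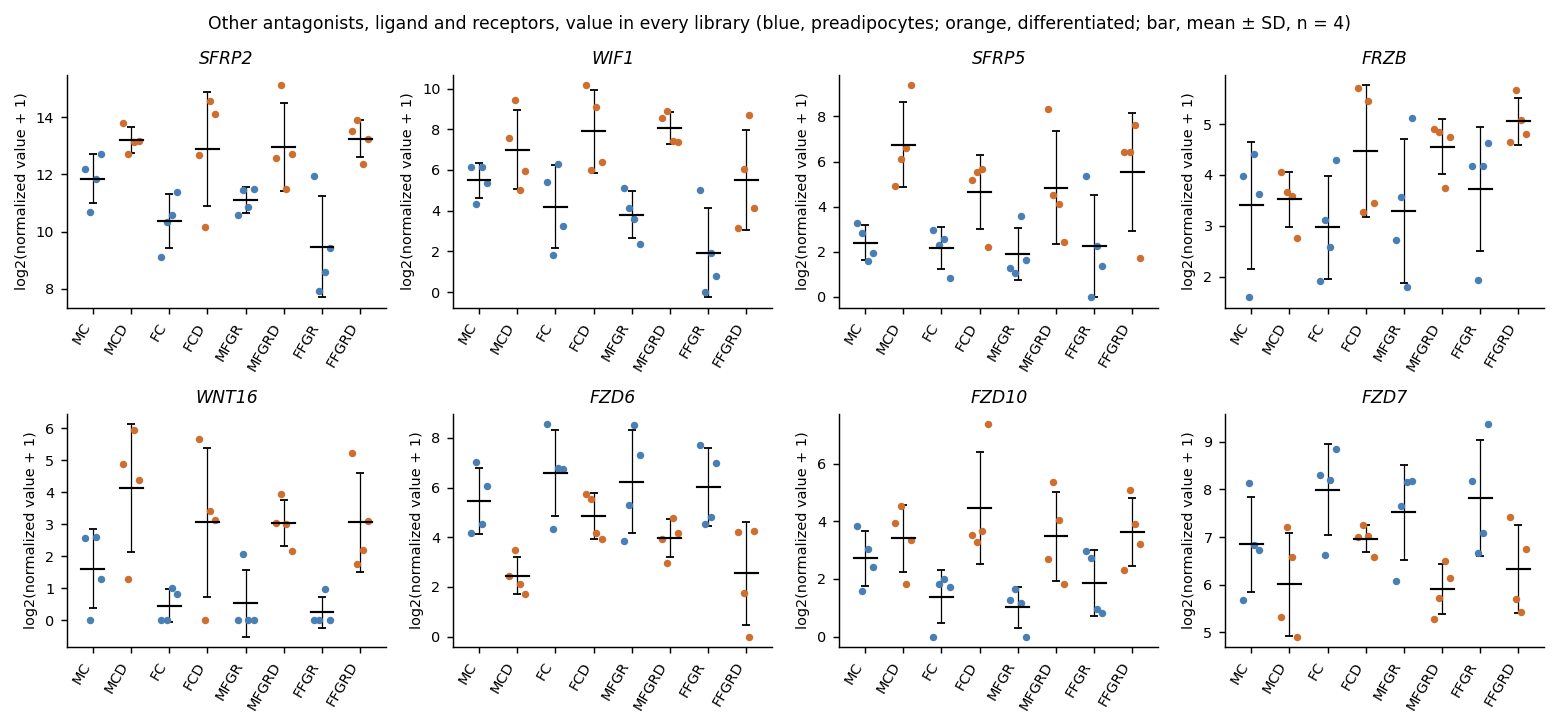
Value of 4 antagonists that rose, of the ligand WNT16 and of 3 Frizzled receptors in every library (y axis, log2(normalized value + 1); x axis, the 8 groups; black bars, mean ± SD of 4 libraries). SFRP2, WIF1, SFRP5, WNT16 and FZD10 have higher and FZD6 and FZD7 lower means after differentiation in each background, and single libraries of both stages overlap.

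In the cytoplasm, AXIN2 rose and DACT1 fell. AXIN2, a scaffold of the destruction complex and itself a target gene of beta-catenin (ENSOARG00020009921, chromosome 11, bases 1108880 to 1135509), rose 3.60-fold. In males AXIN2 read 3.68, 16.3, 13.3 and 12.9 in MC against 51.7, 50.1, 15.96 and 31.5 in MCD, and 4.18, 17.4, 8.71 and 5.31 in MFGR against 21.5, 19.3, 100.4 and 26.7 in MFGRD. Female libraries read 4.14, 16.5, 22.9 and 10.02 in FC against 107, 18.4, 61.4 and 44.4 in FCD, and 13.5, 5.57, 10.3 and 22.7 in FFGR against 37.04, 59.8, 25.7 and 64.1 in FFGRD. The lowest differentiated value was 15.96 and the highest preadipocyte value 22.9, and 12 of 16 differentiated libraries were above all preadipocyte libraries (log2 fold change 1.85, SE 0.31, adjusted p = 3.01e-05). The log2 fold change of AXIN2 was nearly even over the backgrounds, from 1.63 to 1.99. DACT1, which binds Dishevelled (ENSOARG00020008146, chromosome 7, bases 73432029 to 73441692), fell 4.20-fold. In males DACT1 read 282, 618, 267 and 266 in MC against 173, 169, 28.7 and 39.6 in MCD, and 244, 552, 671 and 617 in MFGR against 39.5, 106, 141 and 89.6 in MFGRD. The female values were 339, 251, 571 and 743 in FC against 170.4, 101, 127 and 503 in FCD, and 256, 504, 397 and 636 in FFGR against 98.8, 105, 19.9 and 182 in FFGRD. All differentiated libraries but the one labelled FCD 4, at 502.9, lay below every preadipocyte library (log2 fold change -2.07, SE 0.32, adjusted p = 9.37e-06). The remaining cytoplasmic components were not called. CTNNB1, the gene of beta-catenin, had a log2 fold change of 0.13 (SE 0.19), APC of 0.15 (SE 0.56), GSK3B of 0.39 (SE 0.33) and AXIN1 of 0.0019 (SE 0.10).

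Of the TCF/LEF factors, which carry beta-catenin to DNA, TCF7 fell. TCF7 was 2.45 to 152 (median 17.7) in preadipocytes and 3.54 to 23.2 (median 8.499) in differentiated adipocytes, a 2.16-fold fall (log2 fold change -1.11, SE 0.37, adjusted p = 0.0215). Its log2 fold change was 0.16 in MC and between -1.70 and -1.44 in the other backgrounds. TCF7L1 and TCF7L2 were not called, with log2 fold changes of 0.49 and 0.07 and SEs of 0.26 and 0.38. LEF1 did not pass the filter, with a highest value of 17.6 and 12 libraries at 0.

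Without the library labelled FCD 4, 21 of the 22 members kept their call in the average and no other was added (27.2% of all genes), with FZD2 lost (log2 fold change -0.94, adjusted p = 0.0511 by limma). Without the 9 libraries that stood apart, 20 members were called in the average (28% of all genes), 17 of them among the 22. FZD9 (log2 fold change 1.01, adjusted p = 0.0724), WNT2B (1.04, adjusted p = 0.0732), ROR2 (-0.57, adjusted p = 0.0516), FRZB (0.99, adjusted p = 0.0797) and FZD2 (-0.74, adjusted p = 0.0748) were then not called by limma. RSPO3 (-1.07, adjusted p = 0.0178), FZD5 (-1.19, adjusted p = 0.0198) and WNT5B (-1.42, adjusted p = 0.0404) were called downward in that setting but not with all libraries. FZD4, SFRP1 and SFRP4 kept their calls with log2 fold changes of 3.71, -3.34 and -4.30. SFRP5 kept its call with a smaller log2 fold change of 2.16 (adjusted p = 0.0141 by limma), against 3.27 with all libraries.

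Each differentiated group was also compared with its own preadipocytes, 4 libraries against 4. In MC 6 Wnt genes were called by limma (7.82% of all genes), FZD4 and SFRP5 upward and SFRP4, SFRP1, FZD6 and WNT2 downward. The log2 fold changes in MC were 3.86 (SE 0.42, adjusted p = 0.00139) for FZD4, -5.18 (SE 0.92, adjusted p = 0.0102) for SFRP1 and 4.35 (SE 0.87, adjusted p = 0.0164) for SFRP5. FZD6 and WNT2 changed by -3.002 (SE 0.70, adjusted p = 0.0307) and -3.18 (SE 0.78, adjusted p = 0.0374), and SFRP4 by -4.79 (SE 0.78, adjusted p = 0.00756). In MFGR 5 were called (3.45% of all genes), WIF1 and FZD4 upward and SFRP4, SFRP1 and DACT1 downward. In MFGR the change of WIF1 was 4.26 (SE 0.62, adjusted p = 0.0106), that of FZD4 3.22 (SE 0.57, adjusted p = 0.0228) and that of SFRP4 -4.35 (SE 0.67, adjusted p = 0.013). SFRP1 and DACT1 changed by -3.18 (SE 0.57, adjusted p = 0.0241) and -2.49 (SE 0.47, adjusted p = 0.0286) there. In FFGR 3 were called (2.58% of all genes), with 5.16 (SE 0.78, adjusted p = 0.018) for FZD4, -4.30 (SE 0.84, adjusted p = 0.0385) for SFRP1 and -2.70 (SE 0.57, adjusted p = 0.0466) for WNT2. In FC none was called by limma (0.4% of all genes), while 13 of 42 had an unadjusted p below 0.05 against 13.1% of all genes, and the lowest adjusted p was 0.0962. In these unblocked fits no Wnt gene was called in a single background that was not called in the average, whereas with the replicate number as a block RSPO3 was called lower in MC.

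FZD4 and SFRP1 were the members whose 2 stages did not overlap in any of the 4 backgrounds, and SFRP4, DACT1 and DKK1 did not overlap in 3. For DKK1 this set a few reads in some libraries, among them FCD 3, MFGRD 4 and FFGRD 2, against 0 in all preadipocyte libraries. Such a level cannot be told from none. By background, 10 members did not overlap in MC (16.3% of all genes), 6 in FC (10%), 12 in MFGR (11.6%) and 11 in FFGR (11.7%). These shares are for single backgrounds, and none is given for no overlap in 4 or in 3 backgrounds together. With the replicate number as a block, 13 members were called in MC (16.4% of all genes), 2 in FC (1.45%, WIF1 upward and SFRP1 downward) and 14 in MFGR (16.9%), and the blocked calls held all 6 of MC and all 5 of MFGR. The counts rested on single libraries. They went to 3 in MC without MC 3 and to 12 without MCD 1, to 1 in FC without the library labelled FCD 4 (SFRP1, log2 fold change -2.62, adjusted p = 0.0307; 0.652% of all genes), and to 3 in MFGR without any 1 of MFGR 2, MFGR 4, MFGRD 2 or MFGRD 4. In FFGR the count was 0 without FFGR 3 (42 genes), FFGRD 1 (71) or FFGRD 2 (34) and 1 without FFGR 2 (68) or FFGR 4 (139). Without the 9 libraries that stood apart, FZD4 was called in MC (2.28% of all genes) and FZD7 in FC (1.85%), 6 members were called in MFGR (4.64%, among them WIF1, SFRP4, SFRP1 and DACT1 but not FZD4), and by limma 0 in FFGR (0.0236%), where 14 had an unadjusted p below 0.05 (22.4% of all genes). These fits held 4 MC against 2 MCD, 3 FC against 3 FCD, 3 MFGR against 3 MFGRD and 2 FFGR against 3 FFGRD libraries. The log2 fold changes in FFGR were then 4.72 for FZD4, -3.46 for SFRP1 and -2.73 for WNT2, and in MC -4.88 for SFRP1 and -3.16 for FZD6.

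**Figure D4:**
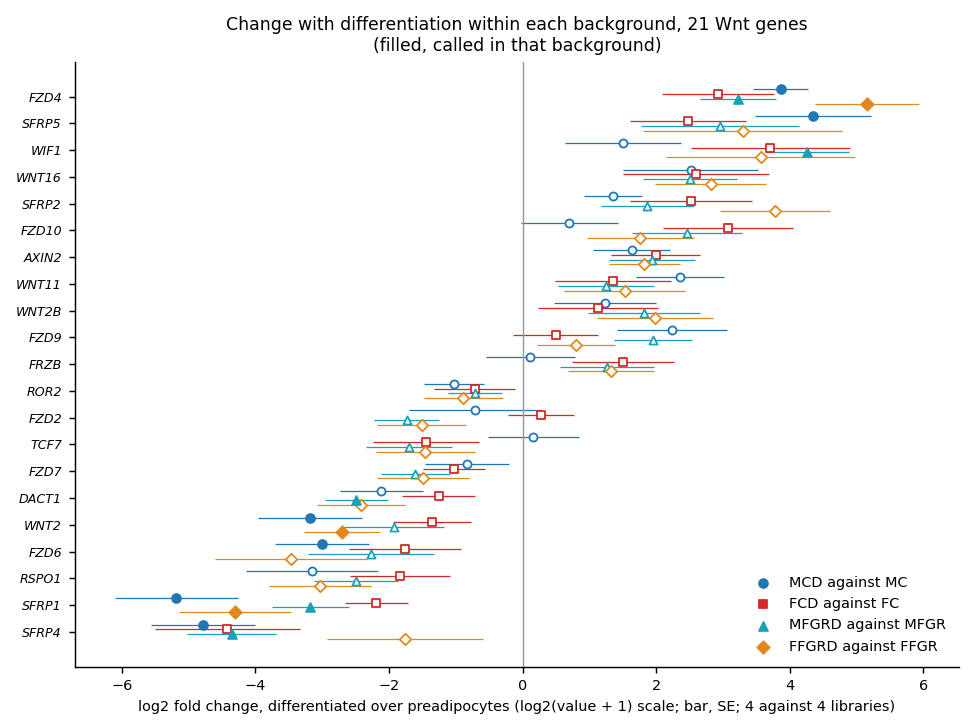
Log2 fold change with differentiation within each background (x axis, log2(value + 1) scale; 4 against 4 libraries; bars, SE) for 21 of the 22 Wnt genes called in the average, DKK1 left out; filled symbols were called in that background. All 4 symbols of a gene fall on 1 side of 0 except for TCF7, at 0.16 in MC, and FZD2, at 0.28 in FC.

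Other genes of the pathway were taken from a list of 75, of which 56 could be tested. With differentiation 9 rose and 11 fell by limma, beside the 12.4% and 14.8% of all genes. NKD1, which binds Dishevelled and is a commonly used target of the pathway, was 0 to 66.1 (median 2.57) in preadipocytes and 3.87 to 796 (median 207) in differentiated adipocytes (log2 fold change 5.32, SE 0.63, adjusted p = 2.19e-07). APCDD1, a membrane inhibitor of Wnt signalling, was 1.05 to 20.97 (median 5.76) in preadipocytes and 9.89 to 342 (median 81.05) in differentiated adipocytes (log2 fold change 3.43, SE 0.41, adjusted p = 2.52e-07). NKD1 was called in MC, MFGR and FFGR and APCDD1 in MC. MYC was 582 to 1642 (median 838) in preadipocytes and 1296 to 3936 (median 2074) in differentiated adipocytes (log2 fold change 1.19, SE 0.16, adjusted p = 1.41e-06), whereas CCND1, the gene of cyclin D1, was 21.22 to 919.7 (median 171) in preadipocytes and 2.37 to 150.001 (median 21.6) in differentiated adipocytes (log2 fold change -3.27, SE 0.51, adjusted p = 1.13e-05). The genes listed as commonly used targets went both ways, with MYC, BMP4, JUN and APCDD1 higher and CCND1, CCN5 and FGF7 lower, and 3 of 10 not called. NKD1 and AXIN2, which rose, were not counted among these 10.

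Genes for ligand secretion and for the proteoglycans that hold ligands at the surface mostly fell, 5 of 8 tested, with GPC6 as the one that rose. WLS, the carrier that brings Wnt proteins to the surface, was 592 to 1315 (median 870.5) in preadipocytes and 328 to 762 (median 495) in differentiated adipocytes (log2 fold change -0.85, SE 0.11, adjusted p = 1.09e-06). GPC4, a glypican, was 223 to 1698 (median 825) in preadipocytes and 13.96 to 431 (median 70.4) in differentiated adipocytes (log2 fold change -3.15, SE 0.36, adjusted p = 1.16e-07). GPC3, SULF1 and SULF2 fell with log2 fold changes of -1.42, -1.84 and -2.20. Among genes listed with receptor turnover and co-receptors PTK7 and PRICKLE1 fell (-0.97 and -1.44) and CELSR2 rose (1.23). CELSR2 lay at a few reads, with medians of 0.385 before and 2.38 after differentiation and highest values of 19.56 and 16.6. In the cytoplasm DAAM1 rose (1.25) beside NKD1, and in the nucleus TLE4 rose (0.73) and TLE5 fell (-0.75). In total 36 of the 56 were not called. In single backgrounds 8 of the 56 were called in MC (7.82% of all genes), 4 in MFGR (3.45%), 4 in FFGR (2.58%) and none by limma in FC (0.4%).

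**Figure D5:**
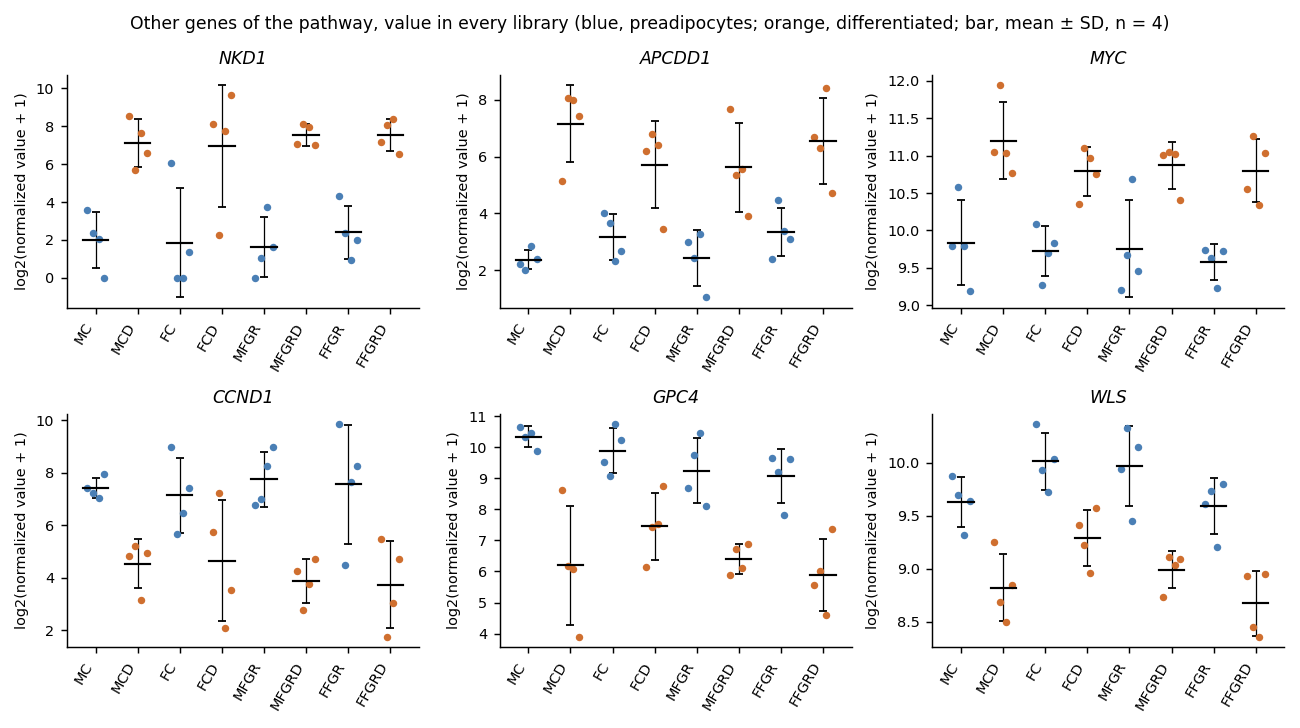
Value of 6 other genes of the pathway in every library (y axis, log2(normalized value + 1); x axis, the 8 groups; black bars, mean ± SD of 4 libraries). NKD1, APCDD1 and MYC have higher and CCND1, GPC4 and WLS lower means in the differentiated group of each background.

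Growth restriction and sex were compared within each stage, over both sexes or both growth groups and in each pair of groups. No Wnt gene was called by limma in any of these comparisons or in the differences in response to differentiation, 16 in all, and neither was any other gene (0% of all genes). The lowest adjusted p of a Wnt gene was 0.839. At an unadjusted p below 0.05 there were 0 to 4 of the 42 Wnt genes per comparison. In preadipocytes this held for 3 Wnt genes for growth restriction (2.61% of all genes) and 3 for sex (4.07%), and in differentiated adipocytes for 1 (0.832%) and 0 (0.84%). In pairs of groups it held for 3 Wnt genes in MFGR against MC (1.97% of all genes), 2 in FFGR against FC (0.997%), 3 in MFGRD against MCD (1.8%) and 4 in FFGRD against FCD (1.19%). Between the sexes it held for 4 in MC against FC (1.58%), 2 in MFGR against FFGR (1.51%), 3 in MCD against FCD (4.12%) and 2 in MFGRD against FFGRD (0.573%). These results do not show that the levels were equal, since with 4 libraries a group the spread was wide.

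SFRP4 had the smallest p for both factors in preadipocytes. Its log2 difference, FGR minus control, was -1.91 (SE 0.57, adjusted p = 0.839), with means of log2(value + 1) of 8.78 in FGR and 10.7 in control preadipocytes. Male minus female it was 2.60 (SE 0.57, adjusted p = 0.849), with means of 11.0 and 8.43. All 4 FFGR values, 19.8 to 557.9, were below the 4 FC values, 654.1 to 1249.8, and MFGR and MC values were above those of the females of the same growth group. FFGR 2 and FFGR 3 were among the libraries that stood apart. Without those 9 libraries the differences were -1.34 for growth restriction and 2.16 for sex, and neither was called. DKK3 came next for growth restriction at 1.22 (SE 0.44, adjusted p = 0.839), and SFRP2 for sex at 1.56 (SE 0.51, adjusted p = 0.849). The median difference, FGR minus control preadipocytes, was -0.24 over the 42 members against -0.02 over all genes. Of the preadipocyte libraries that stood apart, MFGR 1, FFGR 2 and FFGR 3 were FGR and FC 2 was control. The part of these libraries in that median was not tested.

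In differentiated adipocytes the members with the smallest p for growth restriction were WNT5B at -1.42 (SE 0.51, adjusted p = 1) and FRZB at 0.81 (SE 0.40, adjusted p = 1), FGR minus control. For sex they were FZD2 at -1.14 (SE 0.61, adjusted p = 1) and FZD7 at -0.69 (SE 0.37, adjusted p = 1), male minus female. Without the library labelled FCD 4 these differences were -1.57, 0.64, -1.10 and -0.75 in the same order, and none was called. WNT2 did not overlap between FFGRD and FCD (0 to 2.24 against 7.53 to 15.2) or between FFGRD and MFGRD (7.19 to 17.2), and these values were not called. SFRP1 was likewise lower in FFGRD and in MCD than in FCD with no overlap and no call, as was FZD6 in MCD beside FCD. Groups did not overlap for 0 members in MFGR against MC (1.09% of all genes), 1 in FFGR against FC (0.769%), 0 in MFGRD against MCD (0.997%) and 2 in FFGRD against FCD (0.848%). Between the sexes they did not overlap for 1 in MC against FC (1.29%), 1 in MFGR against FFGR (1.18%), 2 in MCD against FCD (1.93%) and 1 in MFGRD against FFGRD (0.51%).

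The response to differentiation was also compared between backgrounds. For FGR against control the smallest p belonged to FZD2 at -1.41 (SE 0.71, adjusted p = 0.988), whose change was -1.74 in MFGR and -1.51 in FFGR beside -0.71 in MC and 0.28 in FC. WNT4 followed at -1.43 (SE 0.74, adjusted p = 0.988). For male against female the first was FZD9 at 1.45 (SE 0.67, adjusted p = 0.911), which changed by 2.23 and 1.95 in males and by 0.498 and 0.79 in females. RSPO3 followed at -1.42 (SE 0.69, adjusted p = 0.911). In males alone, MFGR against MC, WIF1 differed by 2.76 (SE 1.16, adjusted p = 0.97) and ROR1 by 1.85 (SE 0.92, adjusted p = 0.97). In females, FFGR against FC, FZD2 differed by -1.79 (SE 0.81, adjusted p = 1) and SFRP1 by -2.11 (SE 1.01, adjusted p = 1). None of these differences was called, with or without the library labelled FCD 4. Without that library the difference of FZD9 was 1.23 and that of SFRP1 -1.68. At an unadjusted p below 0.05 there were 0 Wnt genes for FGR against control (1.04% of all genes), 2 for male against female (0.911%), 1 for MFGR against MC (1.62%) and 1 for FFGR against FC (0.393%).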

How the data were processed

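Per the file headers and the study's methods, the authors ran Salmon on Ensembl transcripts of Oar_rambouillet_v1.0, discarded reads of low mean quality, and deposited DESeq2-normalized values for each transcript, a signal that is not whole reads. Columns of the authors' own comparisons (fold changes and p-values) were not used. Transcripts were summed per gene. Genes that reached 10 in 4 or more of 32 libraries were tested with limma 3.58.1 (R 4.3.3, trend) on log2(value + 1), with Benjamini-Hochberg adjustment over 12737 genes. Only the libraries compared entered each fit. The span slope is the slope, over genes, of a library's log2 value on log10 genomic span. The fits were tested on simulated data. Members, gene lists and tests were chosen with earlier results of these data known. Named were all members called for differentiation, the 8 with the smallest adjusted p in every library, and the 2 with the smallest p where none was called. Levels are not comparable between genes, since gene lengths did not enter the values. No sequences are shown, because no genome or sequence table of this build was used here. Alternatives were a pseudocount of 0.1, quantile normalization, 3 other filters, all 8 groups in 1 fit, a replicate block, the span slope, transcripts, and each library left out. The setting without the 9 libraries that stood apart was added after seeing the data.

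Deviations of same-numbered libraries from their group means correlated across genes at 0.16 to 0.61 in MC, 0.30 to 0.51 in FC and 0.39 to 0.67 in MFGR. In these backgrounds each differentiated library correlated most with the preadipocyte library of its own number, so the numbers may pair them. The labels do not state a pairing. Between FFGR and FC, which cannot share a fetus, same-numbered libraries reached 0.76. In FFGR the correlations of the stages ran from -0.40 to 0.56, and 3 of 4 pairs exceeded 0.1. The main fits did not use the numbers.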

Additional observations from a re-analysis of the deposited data

Results flagged for a closer look

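The 8 members with the smallest adjusted p for differentiation were checked for single libraries far from the other 3 of their group, on log2(value + 1). In 60 groups the values had a range, and 4 groups of DKK1 at 0 throughout were left out. In 6 of the 60 the gap to the nearest library exceeded Dixon's 95% critical value for 4 samples, with gaps of 0.84 to 1 of the group's range. Chance flags about 1 in 20 groups of continuous values, a rate that does not hold for groups with 3 libraries at 0, where any value above 0 gives a gap of 1. That holds for RSPO1 in MCD and FFGRD. The library labelled FCD 4 read 1746 for SFRP1, above the other FCD libraries. MC 2 read 618.4 for DACT1, above the other MC libraries, and MC 1 read 3.682 for AXIN2, below them. MCD 3 was the MCD library with DKK1 listed at 0. For RSPO1, MCD 1 read 3.234 and FFGRD 4 read 0.7582 while the other 3 libraries of each group were listed at 0. In the sum over transcripts, the low AXIN2 value of MC 1 came from AXIN2-202, whereas the other MC libraries held AXIN2-201. None of these 6 libraries was among the 9 that stood apart. No difference in the response of a Wnt gene to differentiation was called between backgrounds.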

How the results depend on the processing

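Counts of called members stood at 22 in the average, 6 in MC, 0 in FC, 5 in MFGR and 3 in FFGR. The filter of 20 per 1e6 in 3 libraries tested 21 members and called 8 in the average, 3 in MC and 1 in FFGR. With the span slope as covariate 3 were called in MC, 1 in FC, 9 in MFGR and 11 in FFGR, and with transcripts in place of gene sums 3 in MC and 3 in MFGR. All 8 groups in 1 fit gave 2 in FC and 7 in FFGR. Without the 9 libraries that stood apart, a setting chosen after seeing the data, 1 was called in MC, 1 in FC and 0 in FFGR. Leaving out each library in turn gave 21 to 22 in the average, 3 to 12 in MC, 0 to 1 in FC, 3 to 6 in MFGR and 0 to 3 in FFGR. In FFGR the count was 0 without FFGR 3, FFGRD 1 or FFGRD 2, where 42, 71 and 34 of all genes were called. With the replicate number as a block 13 were called in MC, 2 in FC, 14 in MFGR and 22 in the average. In FFGR, where same-numbered libraries were mostly not the best match, 1 was called. The block changed no call of growth restriction, sex or response. The cause of these shifts was not tested.

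Over all genes the averaged comparison called 3466, or 1721 with the filter of 20. In MC 996 genes were called, 552 with that filter, 2092 with the block, 752 with the span slope and 416 by transcripts. There 290 were called without the 9 libraries and 2020 without MCD 1. In FC 51 were called, 321 with all groups, 185 with the block, 381 with the span slope, 236 without the 9 and 83 without FCD 4. In MFGR the 439 became 2149 with the block, 1702 with the span slope and 209 by transcripts. In FFGR the 329 became 108 with the filter of 20, 1315 with all groups, 157 with the block, 1990 with the span slope and 3 without the 9.

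The 16 comparisons of growth restriction, sex and response called 0 members in all of their 382 alternatives. The 52 results of named members kept their sign in all 1603 alternatives and lost 95 calls, with FZD2 lost most often in the average, in 27 of the 40 that gave it a value. In the average every called member with a value kept its call in 14 of 41 alternatives. Quantile normalization moved the median of all genes by at most 0.057. Depth limits the genes of a few reads, such as most ligands.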

Other observations

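Transcripts of 1 gene did not always change together. AXIN2 had 2 transcripts, and AXIN2-201 rose with differentiation in the average (log2 fold change 2.45, adjusted p = 0.0045 by limma over all transcripts), while AXIN2-202 was not called (log2 fold change -0.18, adjusted p = 0.885). In 30 of 32 libraries AXIN2 was given to a single one of the 2, and MCD 2 and FCD 4 held both. All 3 transcripts of SFRP2 rose in the average, with log2 fold changes of 2.61, 2.31 and 3.54. TCF7L1-204 rose by 2.01 on the log2 scale (adjusted p = 0.0333 by limma) while the other 3 transcripts of TCF7L1 were not called.

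LRP6 was the 1 member of the 42 whose values did not overlap between the 9 libraries that stood apart, 137.4 to 562.5, and the other 23, 698 to 3064. The gene spans 170.5 kb. No share over all genes is given for such a lack of overlap. The sets came from a clustering of all genes, LRP6 among them, so a difference between the sets was partly built in. Both sets held libraries of both stages, and LRP6 was not called for differentiation.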
